A study of Mus musculus with 12 samples.

Results

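Loss of the exonuclease gene Trex1 was compared in mouse embryonic fibroblasts that had no STING, by setting cells lacking both genes (STKO, Sting -/- Trex1 -/-) against cells lacking STING alone (SKO, Sting -/- Trex1 +/+). The comparison used every array whose title starts with STKO_ or SKO_, which is 6 of the 12 arrays of the series, 3 per genotype. The other 6 arrays, from wild-type cells (WT) and Trex1 -/- cells with intact STING (TKO), gave the same contrast with STING present. The cells were grown from E13.5 embryos of a C57BL6/129Sv background. They were given the vehicle DMSO or 20 µg/ml of the carcinogen DMBA, an aromatic hydrocarbon that cells metabolize to DNA-damaging products, for 24 or 48 h. Each genotype and treatment had 1 Illumina bead array read with biotin-labelled cRNA, so a genotype difference has n = 3 treatments, and no single array has a replicate. The labels give neither the time of the DMSO cultures nor the number of embryos or lines behind a genotype. P-values therefore measure only the spread between these single arrays, and genotype, embryo, sex and cell mix of a culture cannot be told apart.

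TREX1 is the main DNA-degrading exonuclease of the mammalian cytosol and is anchored to the endoplasmic reticulum. DNA that it does not remove can be bound by cGAS, which makes the second messenger cyclic GMP-AMP. That messenger activates STING, which recruits the kinase TBK1 and the transcription factor IRF3 and so induces type I interferon. Interferon then acts back on the cells through the factor complex ISGF3, which binds interferon-stimulated response elements (ISREs) in the promoters of antiviral genes. The question of the contrast is what Trex1 loss leaves in the transcriptome when STING is absent.

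The promoters of 5 interferon-stimulated genes are shown first, because these genes were called higher in TKO than in WT and were not called between STKO and SKO. Rsad2 was detected on none of the 6 STKO and SKO arrays, so a call between those genotypes was hardly possible for it. Each stretch runs 5′ to 3′ along the gene's strand, with 20 bases on either side of an ISRE core in capitals. Other matches are not marked. Isg15 had 3 overlapping matches, and the earlier ones start in the lower-case bases before the capitals. The sequences and coordinates are RefSeq's, on GRCm38.p6.
Isg15, chr4:156200855-156200904, minus strand: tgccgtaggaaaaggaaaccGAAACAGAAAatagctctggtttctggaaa
Ifit3, chr19:34583387-34583436, plus strand: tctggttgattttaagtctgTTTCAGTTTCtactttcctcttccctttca
Rsad2, chr12:26456543-26456592, minus strand: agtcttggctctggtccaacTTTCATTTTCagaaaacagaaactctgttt
Gbp2, chr3:142620584-142620633, plus strand: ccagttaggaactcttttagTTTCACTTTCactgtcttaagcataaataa
Igtp, chr11:58199502-58199551, plus strand: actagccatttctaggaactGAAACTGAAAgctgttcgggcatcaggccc

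The core searched was GAAANNGAAA or its reverse complement TTTCNNTTTC, anywhere from 250 bases before to 50 bases after a transcription start, with overlapping matches counted. It was found in 1131 of 32851 promoter windows (3.44%). The interferon list had 42 tested genes, of which 32 matched a promoter window by symbol and 16 held the core. Of those 16 genes, 7 were called higher in TKO than in WT and 0 were called in either direction between STKO and SKO. The 7 are the 5 shown plus Oas1a and Oas1g. The 16 list members without the core gave 11 and 0 calls. Of the 42 list genes, 12 were detected on none of the 6 STKO and SKO arrays, where a call between those genotypes was hardly possible. These 12 gave 10 of the list's 24 calls between TKO and WT. Outside the list, 283 tested genes held the core, and 1 of them was called between STKO and SKO (0.353%, beside 0.189% of tested genes without the core). Between TKO and WT 12 of the 283 were called higher and 15 lower (9.54%, beside 5.19% without the core). A match describes these letters only and says nothing of whether a factor binds there.

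The targeted genes followed the labels. On the brighter Trex1 probe, SKO read 8.12, 8.30 and 8.33 under DMSO, 24 h and 48 h on the log2 intensity scale, and STKO read 6.22, 6.50 and 7.19. The 3 STKO arrays all lay below the 3 SKO arrays, and the mean difference was -1.61 ± 0.20 (SE, n = 3 treatments, limma adjusted p = 0.0119). This probe was still detected on all 3 STKO arrays and on all 3 TKO arrays. A second Trex1 probe read 6.80, 7.41 and 7.67 in SKO and was not detected on any STKO array, which put SKO at least 2.84-fold above STKO (adjusted p = 0.00084). The remaining Trex1 probe was detected on none of the 12 arrays. Sting1 was detected on 1 of 3 arrays in each of SKO and STKO, at 5.38, 5.52 and 6.01 in SKO and 5.06, 5.66 and 5.93 in STKO. With STING present it was detected on all arrays, at 7.80 to 8.12 in WT and TKO. The position of these probes within the transcripts was not examined.

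Bounds of the form "at least N-fold" are used wherever every array of a genotype was not well above background (detection p of 0.01 or more). They set the detected group's mean against the lowest detected signal of the other group's arrays. Between 15662 and 16516 probes were detected on each of the 6 arrays. The fibroblast identity of the cultures held, since all 14 fibroblast markers listed were detected on all 6 arrays, among them Thy1, Vim and Col1a1. Macrophage transcripts were also present, and 12 of 13 tested macrophage markers were detected on all 6 arrays. Their summed level (log2 of the summed intensities) ran from 15.03 to 16.04 in SKO and from 15.34 to 16.03 in STKO. The Y-linked Eif2s3y was not detected on any of the 6, at 4.43 to 4.52.

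Few probes were called between the STING-null genotypes. Of 18389 tested probes, 34 were called between STKO and SKO at an adjusted p under 0.05 (0.185%), 15 of them higher and 19 lower in STKO. The same model called 958 probes between TKO and WT (5.21%), 409 higher and 549 lower. Counting each gene once by its brightest probe, 17 of 10142 genes (0.168%) were called without STING and 590 (5.82%) with it. At an unadjusted p under 0.05, 1312 probes (7.13%) differed between STKO and SKO. The count was 60 with only the 6 STING-null arrays fitted and 125 with treatment effects separate by STING. It also rested on single treatments: 74 probes were called without the DMSO arrays, 9 without the 24 h arrays and 11 without the 48 h arrays. All 34 probes differed in the same direction in all 3 treatments. For 32 of the 34 the STKO and SKO arrays did not overlap, against 1280 of all tested probes (6.96%). The call rests on the mean of the same 3 differences, so shared direction and separation largely follow from it and add no support.

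Single treatments were unequal in how far the genotypes stood apart. Under DMSO 43 probes were over 1 higher and 62 over 1 lower in STKO on the log2 scale. At 24 h these numbers were 188 and 204, and at 48 h they were 206 and 238. Only 15 and 20 probes passed that size in all 3 treatments. These within-treatment counts compare 1 array with 1 array and have no test.

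Members of the interferon list were called in the contrast with STING and not in the one without it. Of the 42 tested members, 0 were called between STKO and SKO, where 0.168% of all tested genes were called. At that share a list of 42 genes would most likely hold no call. The members' median difference was -0.03, and single genes ran from -0.48 to 0.61. Between TKO and WT, 24 of the 42 were called, all higher in TKO, with a median of 1.06, against 5.82% of all tested genes called. That count was 28 without the DMSO arrays, 2 without the 24 h or without the 48 h arrays and 9 with all probes tested. Macrophage markers had a median of -2.50 in the same contrast, and their part in it was not tested. Over all tested genes the medians of both contrasts were 0.003 and 0.004. At an unadjusted p under 0.05, 2 of the 42 differed between STKO and SKO, and 37 between TKO and WT. None of the list's genes was called between STKO and SKO under any of the 13 other settings tried. Among these settings, the authors' value table and the signals without background correction are not separate checks. Gbp2b, an interferon-inducible gene that is not on the list, was called lower in STKO and lower in TKO, and its values are given with the called genes.

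Isg15, a ubiquitin-like antiviral protein, read 6.29, 6.36 and 6.90 in SKO and 6.09, 7.14 and 6.21 in STKO. WT read 10.26, 9.42 and 10.35, and TKO read 11.90 and 12.26 under DMSO and at 24 h and was higher still at 48 h. The STING-null genotypes overlapped each other (-0.04 ± 0.34, adjusted p = 0.989) and lay below all WT arrays, whereas TKO lay above all WT arrays. Ifit3, which binds foreign RNA together with its relatives, gave 6.79, 7.20 and 8.45 in SKO against 6.71, 7.56 and 8.19 in STKO. The difference was 0.01 ± 0.41, beside 1.75 between TKO and WT. Usp18, the protease that removes ISG15 and dampens interferon signalling, read 5.11, 5.32 and 5.91 in SKO and 5.67, 6.01 and 6.07 in STKO. Its difference of 0.47 ± 0.21 was among the 2 smallest unadjusted p-values of the list but had an adjusted p of 0.694. The smallest belonged to Tap1, a peptide transporter for antigen presentation, at 5.46, 6.31 and 6.66 in SKO and 5.46, 7.40 and 7.41 in STKO (0.61 ± 0.18, adjusted p = 0.463).

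Many of these transcripts sat at the detection limit without STING. Of the 42 genes, 12 were detected on none of the 6 arrays, among them Irf7, Oasl1, Rsad2 and Mx2, and a difference below that limit cannot be seen. The 25 genes detected on all 6 arrays had a median of -0.04 between STKO and SKO, with a range from -0.38 to 0.33. The same 25 had a median of 0.76 between TKO and WT, with 11 called.

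The gap between the contrasts was itself tested, as the STKO minus SKO difference minus the TKO minus WT difference. In that test 6 of the 42 interferon-stimulated genes were called, against 345 of 10142 genes (3.4%) and 548 of 18389 probes (2.98%) overall. Isg15 (-2.41) and Oas1g (-1.67) were detected on all 6 STING-null arrays, and Parp14 (-1.68) on 5 of them. The other 3, Irf7, Oasl1 and Rtp4, were detected on none of the 6 and entered the test through WT and TKO arrays, so their STKO minus SKO value is set by the detection limit. The other 36 did not pass it. This count also rested on single treatments, with 0 called without the 24 h or without the 48 h arrays and 15 called without the DMSO arrays.

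**Figure D1:**
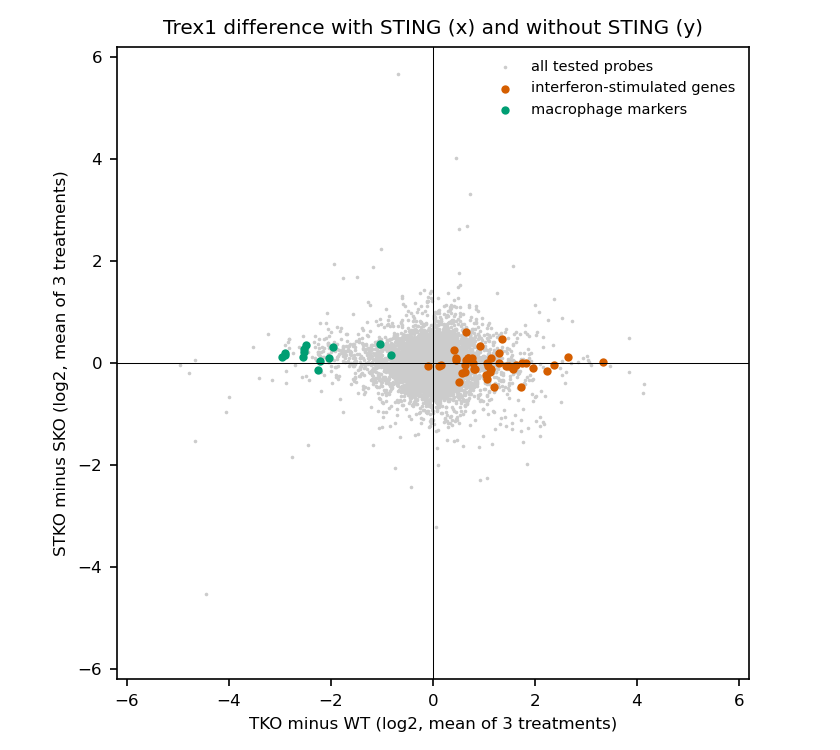
Each point is 1 probe, with TKO minus WT on the x axis and STKO minus SKO on the y axis, both in log2 units as means of 3 treatments. Grey points are all 18389 tested probes, orange points the 42 interferon-stimulated genes and green points the 13 macrophage markers; both coloured groups spread along x and stay between -0.48 and 0.61 on y.

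The lists of cytokines, NF-kB response genes and DNA sensors had no called member, counted on each gene's brightest probe. The share called over all tested genes was 0.168%, so lists of this size would mostly hold none. Casp4 and Azi2, which belong to none of these lists, were called and are described below. Among 27 tested cytokines and chemokines 0 were called between STKO and SKO (median 0.16), with 4 at an unadjusted p under 0.05. Ccl5, a T cell attracting chemokine, was detected in SKO under DMSO at 6.18 and otherwise read 4.74 to 5.03 on the STING-null arrays. Cxcl10, an interferon-induced chemokine, was detected on none of the 6, at 4.68 to 4.88. Ccl2, which attracts monocytes, was detected throughout, with 9.40, 9.73 and 10.16 in SKO beside 9.62, 9.98 and 10.36 in STKO. The genotypes overlapped, and the difference was 0.22 ± 0.35.

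Il6, a cytokine of the acute phase response, was not called, though its arrays did not overlap. It read 5.74, 6.74 and 5.94 in SKO and 6.97, 7.07 and 6.92 in STKO, so that every STKO array lay above every SKO array. The difference was 0.85 ± 0.40 (adjusted p = 0.743), and 6.96% of all tested probes likewise had no overlap between the genotypes. Il11, an Il6 relative, read 5.97, 6.51 and 6.53 in SKO and 7.02, 7.74 and 7.90 in STKO (1.22 ± 0.48, adjusted p = 0.663), again without overlap. It is named after its values were seen. Il15 (0.80 ± 0.22) and the alarmin Il33 (-1.07 ± 0.40) had the smallest p of the list, with adjusted p of 0.393 and 0.631. None of 17 NF-kB response genes (median 0.10, 4 at an unadjusted p under 0.05) and none of 17 cytosolic DNA sensing genes (median -0.05, 0 at that level) was called. Cgas itself read 9.45, 9.00 and 9.74 in SKO and 9.31, 8.88 and 9.14 in STKO. Among 18 nucleic acid degrading enzymes only Trex1 was called. The other nucleases and editing enzymes linked to interferonopathies were not called, with Samhd1 at -0.05 ± 0.11, Rnaseh2b at -0.17 ± 0.15 and Adar at 0.09 ± 0.13.

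The 34 called probes named 24 genes, 9 higher and 15 lower in STKO, and 7 of the probes had no gene in the annotation used. Of 30 gene lists with a tested member, 26 had no called member and the other 4 had 1 each, counted on each gene's brightest probe: Trex1 among the nucleases, Stt3b among oligosaccharyltransferase genes, Hoxb4 among Hox genes and Tbx4 among patterning factors. With 0.168% of all tested genes called, most lists would hold no call whatever their genes. Mcm6, on the S phase list, was called on another probe than its brightest.

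Several of the probes higher in STKO were low in SKO alone. Zfp330, which encodes a zinc finger protein, read 4.66, 4.77 and 4.71 in SKO and 10.41, 10.41 and 10.34 in STKO. TKO read 10.49 to 10.67 and WT 11.23 to 11.32, so SKO stood apart from the other 9 arrays. No SKO array was detected, and STKO was at least 25.4-fold higher (adjusted p = 2.6e-09). A second Zfp330 probe did not show it, at 0.23.

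Mcm6, a subunit of the replicative helicase, repeated that picture. Its called probe read 4.93, 5.25 and 5.09 in SKO, none detected, and 9.51, 9.34 and 8.51 in STKO (at least 10.6-fold, adjusted p = 2.24e-05). The 3 other tested Mcm6 probes differed by -0.15 to -0.01. Map4k5, a kinase upstream of the stress kinase JNK, was at least 3.23-fold higher in STKO on one probe (7.28, 7.38 and 7.56, undetected in SKO) and differed by 0.32 on the other.

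Twistnb, which encodes a subunit of RNA polymerase I, was called on both of its probes. The probe with the larger difference read 6.72, 6.87 and 6.89 in SKO and 10.23, 10.18 and 10.03 in STKO (3.32 ± 0.12, adjusted p = 7.78e-07). The other gave 2.63 ± 0.15. On both, SKO lay below all other 9 arrays.

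Smaller upward differences followed. Ccng2, an unconventional cyclin linked to cell cycle arrest, read 7.65, 8.01 and 8.25 in SKO and 9.58, 9.84 and 10.15 in STKO (1.89 ± 0.13, adjusted p = 8.82e-05). Anxa4, a calcium-dependent phospholipid-binding protein, read 7.45, 7.86 and 7.25 in SKO and 9.10, 9.18 and 9.28 in STKO. Neither gene's groups overlapped, but the second Anxa4 probe gave -0.15. Mgll, the lipase that breaks down monoacylglycerols, read 5.81, 5.97 and 5.77 in SKO and 7.11, 6.97 and 7.57 in STKO (1.37 ± 0.20). Here STKO was above all other 9 arrays. Its other probes gave 1.28 and 0.99. Usp38, a deubiquitinase, was undetected in SKO and at least 1.9-fold higher in STKO. The homeobox gene Hoxb4 was higher by 0.80 ± 0.12 (adjusted p = 0.0351).

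Among the genes lower in STKO was Epm2aip1, whose product binds the glycogen phosphatase laforin. Its called probe read 10.15, 9.83 and 10.29 in SKO and 5.44, 5.42 and 5.79 in STKO (-4.54 ± 0.14, adjusted p = 2.23e-07). WT read 9.88 to 10.24 and TKO 5.28 to 6.00, so the probe split the arrays by Trex1 status with STING present or absent. The 4 other tested probes of the gene went the other way, at 0.22 to 0.67, and none was called.

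Lars2, the mitochondrial leucyl-tRNA synthetase, was low in STKO alone. It read 8.99, 8.98 and 8.76 in SKO, 5.39, 5.96 and 5.71 in STKO, and 7.88 to 8.24 in WT and TKO (STKO minus SKO -3.22 ± 0.16, adjusted p = 1.32e-05). Sema3f, a secreted semaphorin that guides axons and vessels, read 8.83, 8.45 and 9.15 in SKO and 6.72, 6.07 and 6.89 in STKO (-2.25 ± 0.29, adjusted p = 0.0145). Its second probe gave -2.29, and on both STKO lay below the other 9 arrays.

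Casp4, the inflammatory caspase that senses cytosolic lipopolysaccharide, read 6.49, 6.40 and 6.29 in SKO and was undetected in STKO. SKO was at least 1.52-fold higher (adjusted p = 0.000346), and a second probe gave -0.98. Gbp2b, an interferon-inducible guanylate-binding protein, read 6.30, 5.82 and 5.98 in SKO and was likewise undetected in STKO, for a bound of 1.18-fold. With STING present WT read 9.06 to 9.29 and TKO was undetected, so that WT was at least 10.9-fold higher. Azi2, an adaptor of the kinase TBK1, was detected on the 3 SKO arrays alone among the 6 (6.50, 6.41 and 6.46, at least 1.59-fold), while its other probes gave -0.49 and 0.01.

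Bmp4, a ligand of the TGF-beta family, read 9.40, 9.30 and 8.91 in SKO and 8.02, 6.87 and 6.81 in STKO (-1.97 ± 0.20, adjusted p = 0.00234). Tbx4, a hindlimb and lung transcription factor, read 8.34, 8.25 and 8.54 in SKO and 6.69, 7.07 and 7.10 in STKO (-1.42 ± 0.21). Tfap2a, a neural crest and epidermal transcription factor, read 6.63, 6.24 and 6.07 in SKO and was undetected in STKO. All 3 were called higher in TKO than in WT, by 1.85 for Bmp4, 2.10 for Tbx4 and at least 3.51-fold for Tfap2a, which was undetected in WT. The 27 tested patterning factors, Tbx4 included, had a median of -0.14, and the 25 Hox genes one of 0.07.

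Of the remaining lower genes, Ctsc, the lysosomal dipeptidase cathepsin C, was -1.23 ± 0.19 with its other probes at -1.19 and -1.14. Timmdc1, an assembly factor of respiratory complex I, read 10.36, 10.44 and 10.48 in SKO, with STKO at 9.33, 9.27 and 8.94. SKO was the genotype that lay above the other 9 arrays. Stt3b, a catalytic subunit of the oligosaccharyltransferase that TREX1 is known to associate with, read 13.24, 12.89 and 13.15 in SKO and 12.33, 12.15 and 12.26 in STKO (-0.84 ± 0.13, adjusted p = 0.0351). Its other probes gave -0.18 and -0.17, and the other 19 oligosaccharyltransferase and N-glycan genes tested were not called. Arv1 (-0.93) and Sgip1 (-1.07) complete the 24 and are named for that reason.

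**Figure D2:**
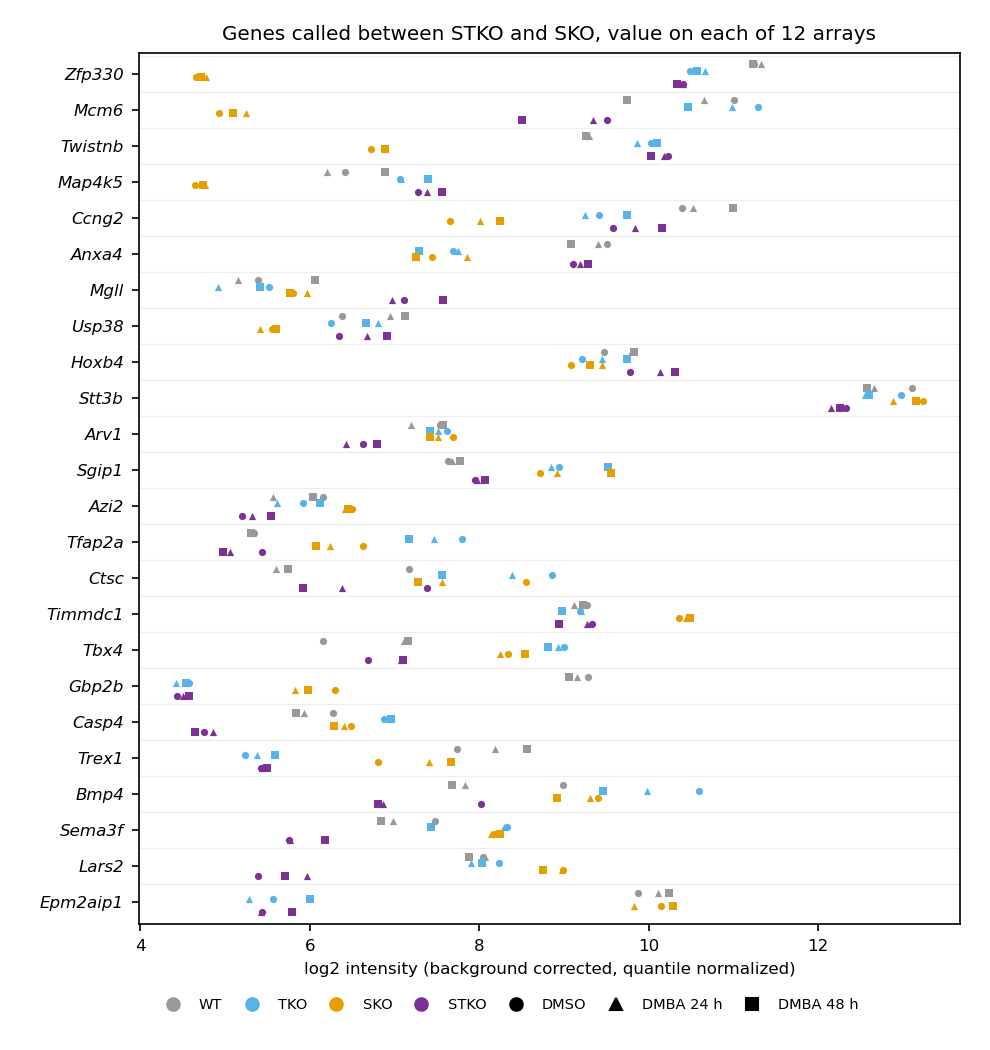
Log2 intensity of the probe with the largest difference for each of the 24 called genes on all 12 arrays, coloured by genotype with the treatment as the marker shape; genes run from highest to lowest STKO minus SKO. SKO alone is low for Zfp330, Mcm6, Twistnb and Map4k5, STKO alone is low for Lars2 and Sema3f, and TKO and STKO are low together for Epm2aip1, Gbp2b and Trex1.

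How far a call extended over a gene's probes was counted for all 24 genes. For 9 genes a single probe was tested. Of the other 15, 7 had every other probe at least 0.5 times as large in the same direction, and 3 of those 7 (Trex1, Sema3f and Twistnb) had every tested probe called. In the other 8, which are Zfp330, Mcm6, Map4k5, Anxa4, Usp38, Epm2aip1, Azi2 and Stt3b, no other probe reached 0.5 of the called difference. Which exon or variant each probe reads was not examined.

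With 4 genotypes the position of each genotype could also be read. SKO lay apart from all other 9 arrays on 12 of the 34 called probes and STKO on 10, which includes 3 probes where both did, and neither did on 15. The 34 were chosen for a difference between STKO and SKO, which favours such positions. The share over all tested probes was not counted. Of the 34 probes 19 were also called between TKO and WT, 7 in the same direction (20.6% of the 34 and 0.731% of the 958) and 12 in the opposite direction. The same-direction genes were Trex1, Epm2aip1, Gbp2b, Twistnb and Map4k5. Across the 18389 probes the contrasts, which share no array but share the model and the treatments, had a Pearson correlation of -0.02. The spread over probes was 0.27 (SD) without STING and 0.42 with it.

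In the test of one contrast against the other, the largest fitted gaps differed in which arrays stood apart. Zfp330 and Mcm6 have the low SKO values given above. Eif2s3y was detected in WT alone, at least 12.7-fold above TKO. Rpl29 and the macrophage elastase Mmp12 differed by -4.66 and -3.23 between TKO and WT and by 0.05 and 0.58 between STKO and SKO. Cck, a peptide hormone gene, was 1.94 without STING and -1.95 with it. On the negative side were Ccl5, the mitotic kinase Plk1, the transcription factor Sim2, Bmp4, Tbx4 and, on another probe than its called one, Ctsc. Ccl5 and Plk1 were higher in TKO by 4.11 and 4.14, and Sim2, undetected in WT, was at least 8.55-fold higher. These 3 were not called between STKO and SKO. Markers of macrophages moved with this test: all 13 were lower in TKO than in WT, 11 of them called (median -2.50). Between STKO and SKO 0 of 13 were called (median 0.16), and 11 were called in the gap. Over all tested genes the shares called were 5.82%, 0.168% and 3.4% in the same order. At 0.168% a list of 13 genes would most likely hold no call. The part of the macrophage markers in the 548 called probes was not tested.

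Chromosome 9, which carries Trex1, held 7 of the 24 called genes. These were 1.19% of its 587 tested genes, and no other chromosome exceeded 0.599%. Positions in RefSeq's order of tested genes were counted from Trex1 at 0. Sema3f was at -37, Epm2aip1 at 19, Stt3b at 29, Azi2 at 32, Lars2 at 75 and Casp4 at -500. All 7 were lower in STKO.

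Most genes close to Trex1 were not called. Among 40 genes, 20 on each side, 0 of the brightest probes were called, beside 0.168% of tested genes, and the median difference was 0.05. Their median size was 0.17, beside 0.13 for all tested genes. Epm2aip1 was the only gene of the 40 with any called probe. With 40 genes on each side, 2 of the 80 brightest probes were called. Any called probe was found in 4 of these 80 genes (Azi2, Epm2aip1, Sema3f and Stt3b), beside 24 of 10142 tested genes. Atrip, which lies beside Trex1 and encodes the partner of the checkpoint kinase ATR, read 7.55, 7.59 and 7.53 in SKO and 6.87, 7.04 and 7.37 in STKO. The groups did not overlap, as was so for 6.96% of all tested probes. The difference of -0.47 ± 0.16 was not called (adjusted p = 0.564). On the other side lies Shisa5, whose brightest probe gave -0.25. Another Shisa5 probe read 6.43, 6.64 and 6.80 in SKO and was undetected in STKO, for a bound of 1.79-fold (adjusted p = 0.254). Which strain's alleles each culture carried around Trex1 was not examined, and its part in these calls was not tested.

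**Figure D3:**
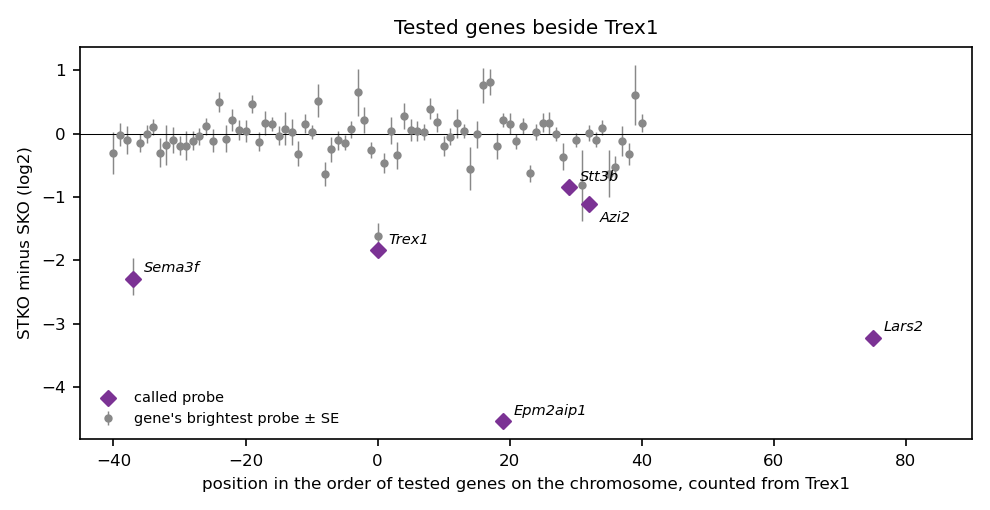
STKO minus SKO (log2) against the position in the order of tested genes on chromosome 9 counted from Trex1; grey points with SE bars are the brightest probe of each of the 40 genes on either side and of Trex1, and purple diamonds are called probes up to position 75. Called probes are scattered between uncalled genes, most of which lie near 0.

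Gene programmes of growth, damage and metabolism differed by small amounts and without calls in the mean over treatments. All 17 tested mitosis genes were lower in STKO (median -0.23, range -0.41 to -0.05), with none called and 1 at an unadjusted p under 0.05. By treatment their median was 0.07 under DMSO, -0.22 at 24 h and -0.50 at 48 h. Cdk1, the kinase that starts mitosis, read 11.39, 11.67 and 11.15 in SKO and 11.49, 11.07 and 10.50 in STKO (-0.38 ± 0.16, adjusted p = 0.669). The median of 26 S phase genes was -0.08, and by treatment 0.14, -0.02 and -0.38. Of 22 p53 targets 18 were higher in STKO (median 0.30), with the inhibitor of cell cycle kinases Cdkn1a at 12.63, 13.24 and 13.72 in SKO and 12.82, 13.99 and 14.11 in STKO (0.45 ± 0.22). These medians compare with 0.003 over all tested genes.

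Structural genes had no called member in their lists, while most fibroblast markers were lower in STKO and some single values were large. Of 14 fibroblast markers 4 were higher and 10 lower in STKO (median -0.35), and 7 had an unadjusted p under 0.05. Of all 10142 tested genes 5147 were higher in STKO and 699 had an unadjusted p under 0.05. Col1a2, a chain of type I collagen, read 10.88, 10.45 and 10.74 in SKO and 12.57, 11.75 and 11.89 in STKO, with no overlap (1.38 ± 0.28, adjusted p = 0.15). Its partner chain Col1a1 read 13.46, 13.55 and 12.91 in SKO and 13.21, 12.80 and 11.75 in STKO (-0.72 ± 0.29), which is the opposite direction, and neither chain was called. Lack of overlap, as for Col1a2, was seen for 6.96% of all tested probes. Glb1, lysosomal beta-galactosidase, read 10.85, 10.91 and 11.32 in SKO and 10.26, 10.30 and 10.65 in STKO (-0.62 ± 0.14, adjusted p = 0.201). It is also a neighbour of Trex1, at position 23 in the order of tested genes. Among 37 lysosomal genes the median was 0.10. Cyp1b1, a cytochrome P450 that metabolizes DMBA, read 10.51, 11.43 and 11.89 in SKO and 10.89, 12.28 and 12.57 in STKO (0.64 ± 0.14, adjusted p = 0.219).

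Whether the DMBA response itself differed between STKO and SKO was tested next, on the mean of 24 and 48 h against DMSO. Of 18389 probes 0 were called by limma, with 652 (3.55%) at an unadjusted p under 0.05. This test had 3 residual degrees of freedom. The smallest unadjusted p, 0.000237, belonged to Ldb2. Ldb2, a LIM domain binding protein, read 8.67, 7.72 and 7.25 in SKO and 8.04, 4.81 and 4.81 in STKO, while WT and TKO read 4.50 to 4.56 after DMBA. Prkg1, a cyclic GMP-dependent kinase, read 9.19, 7.40 and 7.00 in SKO and 9.33, 5.58 and 5.47 in STKO. The STKO values after DMBA lay below the lowest detected signal of the arrays (5.59 to 5.85), so the size of these differences was not measured.

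Ppp1r14a, an inhibitor of myosin phosphatase, went from 5.20 to 6.89 and 7.73 in STKO and from 5.96 to 6.06 and 6.44 in SKO. The neurotrophic factor Gdnf went from 5.58 to 6.80 and 7.12 in STKO and from 6.24 to 5.74 and 6.16 in SKO. In both, the STKO value under DMSO lay below the lowest detected signal. St8sia2, a polysialyltransferase, went from 6.07 to 4.87 and 4.63 in STKO and stayed between 5.85 and 6.28 in SKO. With the 6 STING-null arrays fitted alone 1 probe was called, for the cartilage matrix gene Matn4 (adjusted p = 0.0498). Matn4 read 5.20, 4.76 and 6.82 in SKO and 4.99, 7.46 and 9.63 in STKO.

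The overall size of the response was unequal between single arrays. At 48 h SKO had 618 probes over 1 higher and 462 over 1 lower than under DMSO. STKO had 1058 and 970, WT 1547 and 1555, and TKO 1543 and 1502. STKO therefore lay between SKO and the STING-competent genotypes in these counts, as it did at 24 h, when SKO had 279 and 260 and STKO 350 and 413. The direction was shared, since 1270 of 1312 probes with a mean response over 1 in either genotype had the same sign in both. Each count is of 1 array against 1 array and has no test.

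**Figure D4:**
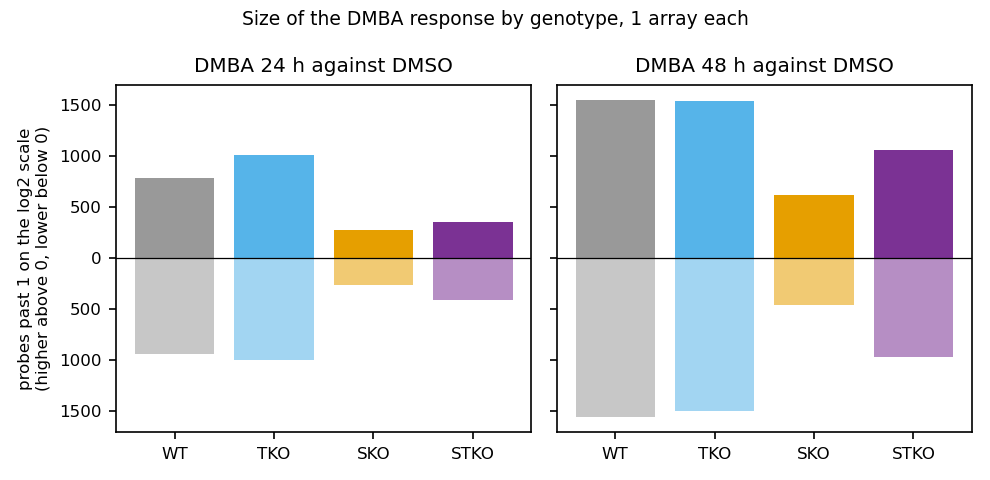
Number of probes over 1 higher (above 0) or lower (below 0) on the log2 scale after DMBA than under DMSO, for each genotype at 24 h and 48 h, 1 array each and no error. At 48 h the bars run from 618 and 462 in SKO through 1058 and 970 in STKO to 1547 and 1555 in WT and 1543 and 1502 in TKO.

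The median responses of gene lists were set side by side, without a test. NRF2 and oxidative stress genes had a median mean response of 1.53 in SKO and 1.35 in STKO, and aryl hydrocarbon receptor targets 1.15 and 1.49. Nqo1, a quinone reductase in both lists, went from 7.26 to 8.20 and 10.81 in SKO and from 7.67 to 9.36 and 11.59 in STKO. Cholesterol synthesis genes had medians of -0.44 in SKO and -1.05 in STKO, S phase genes 0.06 and -0.48, and mitosis genes -0.45 and -0.87. At 48 h the mitosis median was -0.66 in SKO, -1.26 in STKO, -1.30 in WT and -1.10 in TKO. For p53 targets it was 0.75 in SKO, 1.01 in STKO, 1.70 in WT and 1.59 in TKO. Macrophage markers had median responses of -0.99 in SKO and -0.48 in STKO, and their part in these values was not tested.

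**Figure D5:**
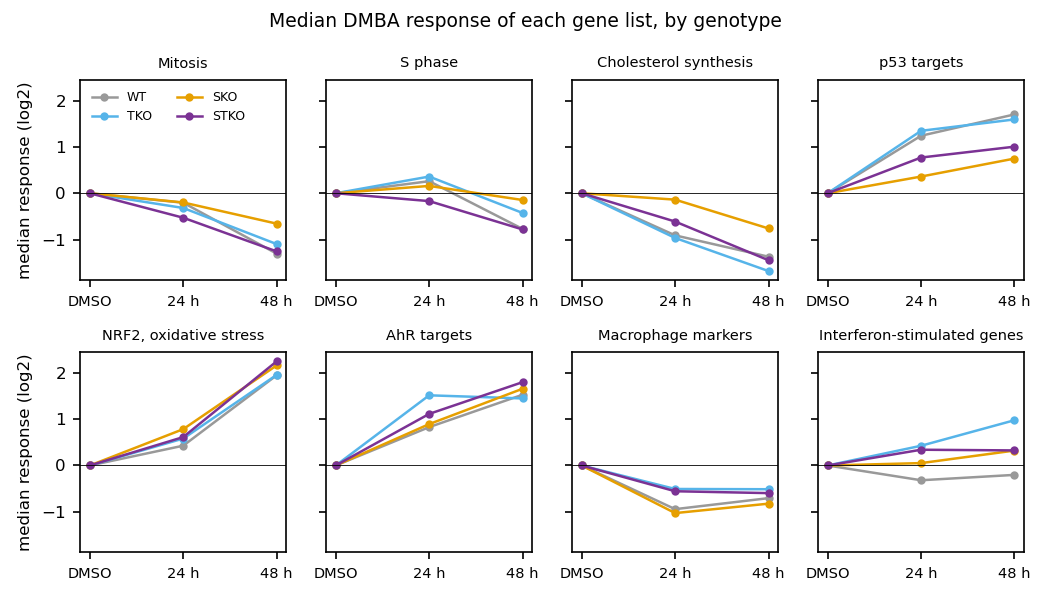
Median DMBA response (log2, against DMSO of the same genotype) of 8 gene lists at 24 h and 48 h, 1 line per genotype. SKO is the shallowest line for cholesterol synthesis and p53 targets at both times and for mitosis and S phase at 48 h, and at 48 h the 4 genotypes read 1.95 to 2.25 for NRF2 and oxidative stress genes.

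Some probes were detected in one STING-null genotype alone. On all 3 STKO arrays and no SKO array there were 19 probes, 6 of them called, and the reverse held for 39 probes, 5 of them called. Over all tested probes 34 of 18389 were called (0.185%). These probes were picked for separating the same arrays that the call uses, which favours a call, so the counts add no support. The bounds of the uncalled probes were small. The highest among those with a gene, named after their values were seen, were Clec16a (at least 1.85-fold, adjusted p = 0.15), Shisa5 and the carbonyl reductase Cbr2 (at least 1.75-fold) in SKO. In STKO it was the metalloproteinase gene Adam8, at 6.00, 6.47 and 6.15 (at least 1.40-fold). Wnt2, a secreted signalling ligand, read 6.17, 5.93 and 6.13 in STKO (at least 1.28-fold, adjusted p = 0.192).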

How the data were processed

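The 12 arrays, 1 per genotype and treatment, gave 45281 probe signals each. Per the file headers, the deposited signals are linear intensity values before any normalization. A deposited score accompanies each probe. It rises with the signal (Spearman correlation 0.98 to 0.99) and was taken to be the detection p subtracted from 1. The authors' deposited value table is in log2 units and was matched to within 0.00125 by the signals after quantile normalization and centring of each probe on its median. No source used here names the scanner software.

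limma 3.58.1 under R 4.3.3 corrected the background (neqc, offset 16), quantile normalized and took log2. Testing covered the 18389 probes whose detection p was under 0.01 on 2 or more of the 12 arrays. Of these 15868 carried 1 symbol, for 10142 genes. On the array 34885 probes had 1 gene symbol, 18 several and 10378 none. RefSeq (GRCm38.p6) matched 34807 probes. A gene counted once stands for its probe with the highest mean. STKO minus SKO, TKO minus WT and their difference came from genotype plus treatment (lmFit and eBayes, 6 residual degrees of freedom), and the DMBA response difference from a model with 3. Calls are 2-sided, with Benjamini-Hochberg adjustment across every tested probe and a threshold of 0.05. Errors after ± are standard errors of the fitted differences. The models were tested on simulated data.

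The comparison, the 31 gene lists and the naming rule were chosen with earlier results of these data known. The rule takes the 12 largest differences per direction among called probes, up to 4 called or 2 uncalled members per list, Trex1, Sting1 and 8 readout genes, and for the other tests 6 per direction or the 5 smallest p. Erythroid markers had no tested member. The number of arrays limits the precision.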

Additional observations from a re-analysis of the deposited data

Results flagged for a closer look

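The Trex1 difference was tested for dependence on STING with an interaction of genotype contrasts, and 548 of 18389 probes passed, 339 positive and 209 negative, where a positive value means a larger STKO minus SKO than TKO minus WT. The genes with the largest positive values were Zfp330 (6.36), Eif2s3y (4.93), Rpl29 (4.71), Cck (3.89), Mmp12 (3.81) and Mcm6 (3.58). Those with the largest negative values were Ccl5 (-4.70), Plk1 (-4.56), Sim2 (-4.01), Bmp4 (-3.82), Tbx4 (-3.53) and Ctsc (-3.37). Of these 12, the Y-linked Eif2s3y was detected in WT alone, and 4 (Zfp330, Mcm6, Bmp4 and Tbx4) were also called between STKO and SKO on the same probe. For Zfp330, Mcm6, Eif2s3y and Sim2 at least 1 genotype was undetected on all its arrays, so their values are fitted numbers and not measured sizes, and their place in the order is not settled. Among genes of the interferon list 6 were called, each negative, and 3 of the 6 were detected on none of the STING-null arrays. The WT arrays and the macrophage markers enter this test through the TKO minus WT contrast, and their part in it was not tested.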

How the results depend on the processing

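The count of genes of the interferon list called between STKO and SKO was 0 under all 13 alternatives. Among these, the authors' value table and the signals without background correction gave the same counts throughout and are not separate checks. The 34 probes called between STKO and SKO became 60 with only the 6 STING-null arrays fitted, 125 with treatment effects separate by STING, 17 with no treatment term, and 9 to 74 when 1 treatment was left out. The 548 probes of the test between contrasts became 1132 with separate treatment effects and 110 to 469 with 1 treatment left out, and the 6 interferon-stimulated genes in it became 1 with all probes tested, 3 with probes detected on 3 of the 6 arrays, 14 with separate effects and 0 to 15 with 1 treatment left out. Between TKO and WT the 958 probes became 1672 with separate effects and 303 to 742 with 1 treatment left out, and the 24 interferon-stimulated genes became 9 with all probes, 14 with probes detected on 3 of the 6 arrays and 2 to 28 with 1 treatment left out. The DMBA response gave 1 call with only the 6 arrays, against 0. Probes detected in STKO alone went from 19 to 30 at a detection p under 0.05. Leaving out a treatment leaves fewer arrays, and the 34 probes became 74 without DMSO, 9 without 24 h and 11 without 48 h. The cause of these changes was not tested under any setting. Of 22 named genes called between STKO and SKO, 6 kept the call under all 13 alternatives (Epm2aip1, Lars2, Map4k5, Mcm6, Twistnb and Zfp330) and 16 lost it in at least 1. None of these 22 changed direction; the other called probes were not followed through the alternatives. The arrays pair by treatment, and the treatment term of the model is that block; the 17 probes with no treatment term are the unpaired count. Signal over background limits the differences of genes detected on none of the 6 arrays.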
